A study of Mus musculus with 22 samples.

Results

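Mitsui7 is a preparation of multi-walled carbon nanotubes (MWCNT), rigid fibres that lung epithelium meets after inhalation. FE1 is a spontaneously immortalised lung epithelial line from a MutaMouse, a transgenic reporter mouse, so every array described here came from cells of 1 line. FE1 cells were exposed in culture for 24 h to 0 µg/ml (control) or 25 µg/ml (medium dose) of Mitsui7, in the same medium with a low share of serum and with murine epidermal growth factor, which all groups share. The comparison uses 10 of the 22 arrays of the study, the 5 medium dose arrays and the 5 control arrays, chosen by their titles. The low dose (12.5 µg/ml) and high dose (100 µg/ml) arrays serve only to place the medium dose among its neighbours. Each array carried Cy5-labelled RNA of 1 sample and Cy3-labelled Universal Mouse Reference RNA, and every level below is the log2 of Cy5 over Cy3, sample over reference. A difference of 1 on this scale is a doubling. The methods describe 3 separate exposure experiments and the labels 3 exposures for each dose on an experiment day. Which array came from which experiment is not given in the sources used here, so arrays of a group may share an experiment, and p-values measure the spread between these samples, which may be partly technical.

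Cells that meet a foreign fibre can answer with several known programmes. The transcription factor AP-1, made of Jun and Fos proteins, follows growth factor and stress kinases and drives matrix-degrading enzymes. ATF4 and CHOP follow when amino acids run short or protein folding is disturbed, NRF2 follows oxidation and electrophiles, and SREBP factors set the supply of sterols. All are measured here through their target genes, and the lists of targets were written from general knowledge with earlier results of these data known.

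The arrays lay on slides, and slide was a term of the model. Slide 1 held replicates 1 and 2 of both groups, and slides 2, 3 and 4 held replicates 4, 3 and 5. Per array 23688 to 39139 probes (control) and 26194 to 35626 probes (medium dose) exceeded the negative control level, and detected probes, median signals and that level gave exact permutation p of 0.6746 to 0.9365 between the groups (two-sided, 5 against 5). Medium dose replicate 2 stood apart by a smaller response, as given below, and control replicate 5 had the fewest detected probes. The labelled cell type was checked against markers. Of 10 lung epithelial markers 7 passed the detection rule: the keratins Krt7, Krt8 and Krt18 and the lung endoderm factor Foxa2 were detected on 5 of 5 control arrays, and Krt19, Cldn4 and Cldn6 on 4 of 5. The other 3 did not, Cdh1 and Nkx2-1 being detected on 0 of 5 control arrays and Epcam on 2 of 5, never well above background. Of 9 fibroblast markers 8 were detected on every control array. All 7 leukocyte markers on the array and 3 of 6 endothelial markers passed the rule too, so detection does not settle the cell type. Control ratios to the reference ran from -5.62 (Krt18) to 4.49 (Foxa2) for the detected epithelial markers, Krt8 and Krt19 being at -4.35 and -4.91. For the detected fibroblast markers they ran from -2.76 (Thy1) to 1.76 (Col1a1). The cells are called FE1 cells below. In RNA of whole cultures, fewer cells of a kind and less RNA per cell cannot be told apart.

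At the medium dose 1686 of 29722 detected probes were called, which is 5.67%, 804 higher and 882 lower than in controls. A call required detection on 4 or more arrays of either group, a limma adjusted p of 0.05 or less and a change of 1.5-fold or more. With 1 probe for each gene, its brightest, 13434 named genes were detected, and 568 (4.23%) were called higher and 629 (4.68%) lower. The median change of the detected named genes was 0.00. Most changes were modest: the median called probe was 1.71-fold higher or 1.78-fold lower, 184 probes rose and 265 fell by at least 2-fold, and 14 rose and 15 fell by at least 4-fold. Called probes lay without overlap between the groups, after removing the slide means, in 86.7% of cases, against 11.5% of detected probes. Of detected probes with a gene name 8.15% were called, and of 6308 detected probes that carry only a chromosome interval 1.43% (90 probes). No gene had probes called in opposite directions. Leaving out each of the 10 arrays in turn kept 1056 (62.6%) of the calls every time, and without medium dose replicate 2 the count was 2044. The split depended on the processing: after centring each array on its median in place of loess, 638 probes were called, 37.1% of them higher against 47.7% with loess. By the log ratio of the scanner software 1965 probes were called, 1102 higher and 863 lower (56.1% higher), so that the direction with more calls changed. Without the slide term 1120 probes were called, and Asns, Atf4, Atf6, Hmgcs1, Rars, Gsta4 and Osgin1, described below, were among the genes that then missed the threshold.

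The largest increases and decreases span several functions. Matrix-degrading enzymes (Mmp13, Mmp3), proliferins (Prl2c5, Prl2c1), stress-induced factors (Atf3, Trib3), the omega glutathione transferase Gsto2, the IL-33 receptor gene Il1rl1 and the secreted protein gene Ccn2 led the increases. The decreases were led by the matrix Gla protein gene Mgp, the laminin gene Lama1, complement regulators (Cd55, C4bp), Il33 and the theta glutathione transferase Gstt1. The plot of array values shows 22 genes from the top of both directions.

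**Figure D1:**
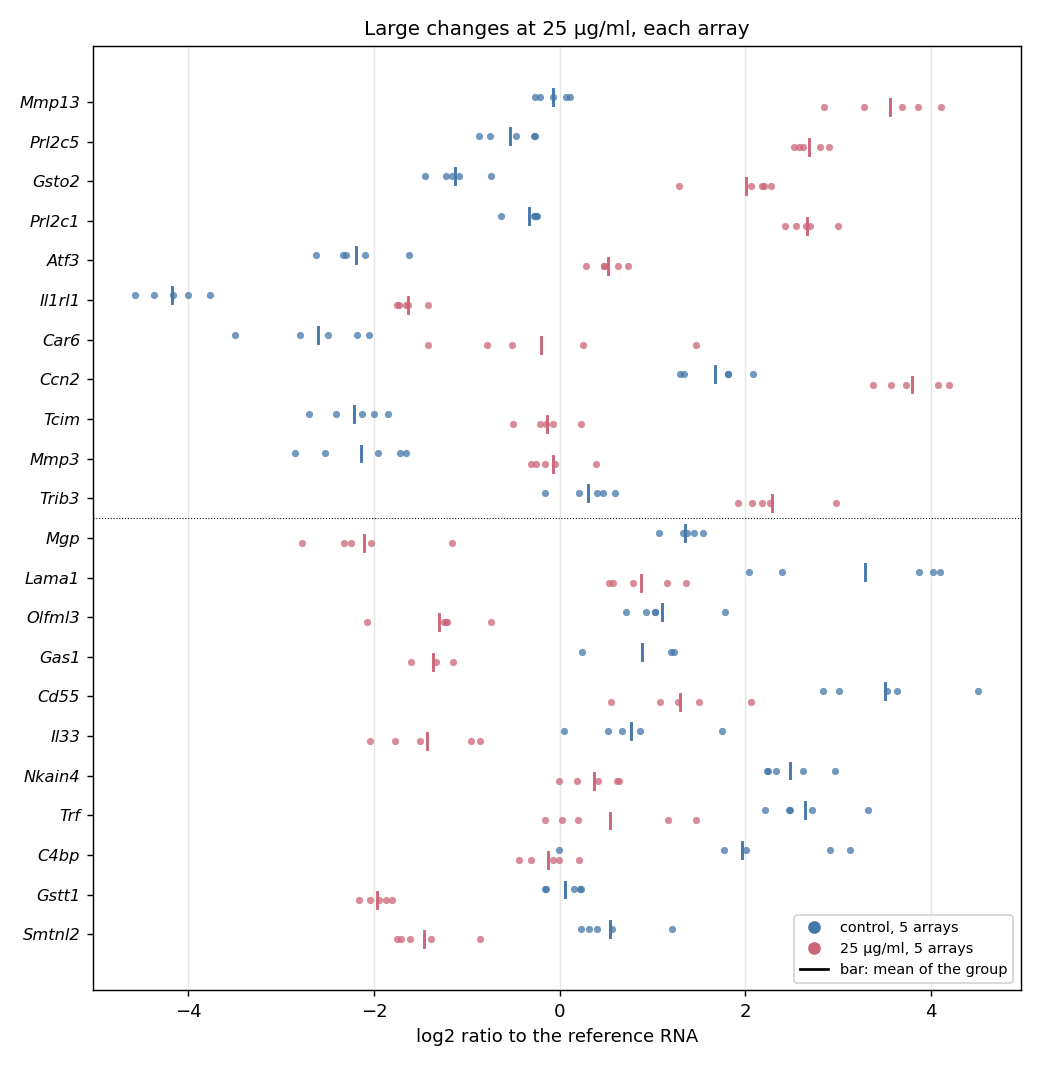
Log2 ratio of sample to reference RNA on each of 5 control and 5 medium dose arrays for 11 of the largest increases (above the dotted line) and 11 of the largest decreases. Points are arrays and bars are group means; Mmp13 moved from -0.07 to 3.56 and Mgp from 1.35 to -2.11, and C4bp is the gene with a control array within the medium dose range.

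Genes of the AP-1 family and other immediate early genes, which encode factors induced within minutes of a stimulus, were measured after these 24 h. Of 24 detected members 11 were called higher and 0 lower, with a median change of 0.64 against 0.00 for all named detected genes. Atf3, a stress-induced partner of Jun, read -2.62, -2.09, -2.30, -2.33 and -1.62 on the control arrays and 0.29, 0.63, 0.74, 0.47 and 0.47 on the medium dose arrays. Every medium dose array lay above every control, and the change was 2.72 (SE 0.16, adjusted p 7.9e-09), 6.57-fold. Jun, the central AP-1 subunit, read -2.33, -2.31, -2.85, -2.66 and -2.85 on the control arrays and -0.85, -0.94, -1.41, -1.29 and -1.26 on the medium dose arrays, again with no overlap, a change of 1.45 (SE 0.12, adjusted p 3.63e-07). Myc, a growth-promoting factor, read -1.47, -0.66, -0.86, -0.48 and -0.40 on the control arrays and 0.44, 0.18, 1.05, 1.12 and 0.81 on the medium dose arrays, and changed by 1.5 (SE 0.16, adjusted p 4.76e-06). Fosl1, the FRA-1 subunit that persists longer than Fos, rose by 1.89 (SE 0.32, adjusted p 0.000692), and Fos by 0.98 (SE 0.16, adjusted p 0.000639), although the Fos values of control replicate 5 and medium dose replicate 2 overlapped and 3 of 5 control spots were well above background. The orphan nuclear receptors Nr4a1 (1.03) and Nr4a2 (1.15), Klf4 (1.32) and Ier3 (1.40) were also called higher. Egr1, another immediate early factor, changed by 0.35 (SE 0.17, adjusted p 0.316) and was not called.

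AP-1 is known to drive matrix-degrading enzymes and their regulators. Of 28 detected proteases and inhibitors of the matrix, 6 were called higher and 2 lower, with a list median of 0.04, so that most members lay near the median of all genes. Among the 6 were the metallopeptidase genes Mmp13, Mmp10 and Mmp3, the plasminogen activator inhibitor Serpinb2 and the urokinase receptor Plaur. Promoter sequences of these 5 were in the RefSeq table (GRCm38.p6), and each held the AP-1 motif TGANTCA, searched on both strands (the motif is its own reverse complement), in the 250 bases before to 50 after the start. Of 11 detected list members that were not called and have a promoter in the table, 0 held it, and of all 27025 genes 8.97% did. A match is a description of letters, not of binding. The 200 bases before the start are shown for the 3 metallopeptidases because their matches lie close to the start, with the motif in capitals. They are chr9:7272314-7272513 on the plus strand, chr9:7502142-7502341 on the plus strand and chr9:7445622-7445821 on the plus strand, and the match begins 35, 63 and 46 bases before the start.
Mmp13: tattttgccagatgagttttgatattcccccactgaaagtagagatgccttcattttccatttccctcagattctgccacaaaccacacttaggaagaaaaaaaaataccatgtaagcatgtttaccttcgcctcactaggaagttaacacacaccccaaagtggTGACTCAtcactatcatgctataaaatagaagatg
Mmp10: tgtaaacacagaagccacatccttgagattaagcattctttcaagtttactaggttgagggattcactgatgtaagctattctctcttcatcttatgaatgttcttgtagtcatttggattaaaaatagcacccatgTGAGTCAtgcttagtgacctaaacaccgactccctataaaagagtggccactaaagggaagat
Mmp3: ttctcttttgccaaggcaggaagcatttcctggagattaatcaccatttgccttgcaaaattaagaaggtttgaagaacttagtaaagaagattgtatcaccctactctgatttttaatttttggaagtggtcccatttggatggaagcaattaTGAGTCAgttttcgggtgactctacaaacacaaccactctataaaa

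Mmp13, the collagenase that cuts fibrillar collagen, read -0.26, -0.07, -0.22, 0.11 and 0.07 on the control arrays and 3.28, 2.85, 3.86, 4.11 and 3.69 on the medium dose arrays. All 5 medium dose arrays were far above the controls, the change was 3.63 (SE 0.19, adjusted p 5.32e-10), 12.4-fold, and its control level is imprecise, since 3 of 5 control spots were well above background. Mmp10, a stromelysin, read 0.25, 0.34, 0.03, -0.19 and -0.05 on the control arrays and 3.25, 3.40, 3.20, 3.34 and 3.75 on the medium dose arrays, a change of 3.31 (SE 0.25, adjusted p 7.58e-08), with the same limit on 3 of 5 control arrays. Mmp3, the other stromelysin, read -1.66, -1.72, -2.53, -2.85 and -1.96 on the control arrays and -0.26, -0.05, -0.15, 0.39 and -0.31 on the medium dose arrays, and its change was 2.07 (SE 0.23, adjusted p 1.08e-05). All 3 enzymes lay without overlap between the groups. Serpinb2 rose by 1.33 (SE 0.29, adjusted p 0.00699) from a control level that 1 of 5 arrays read well above background. Plaur rose by 0.99 (SE 0.23, adjusted p 0.0122), a call that was lost without medium dose replicate 5 (0.86, adjusted p 0.0566). The decreases were those of the tissue plasminogen activator Plat, -0.74 (SE 0.15, adjusted p 0.00364), and of Adamts9, -1.41 (SE 0.39, adjusted p 0.0353), whose call was lost in 8 of the 10 fits that leave out 1 array. Other members with values near the list median were the inhibitors Timp1, Timp2, Timp3 and Timp4, of which 0 were called. After median centring 4 of the list were called higher and 1 lower, Serpinb2 and Plaur not among them. The AP-1 motif was in 0 of 9 called members of the AP-1 list itself that have a promoter in the table.

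ATF4 and CHOP, the factors of the integrated stress response, and their targets had calls in 1 direction. Of 29 detected members 12 were called higher and 0 lower, with a median change of 0.58. The factors themselves were among them. Ddit3, which encodes CHOP, read -0.93, -1.08, -1.09, -0.84 and -0.64 on the control arrays and 0.64, 0.57, 0.85, 0.53 and 0.61 on the medium dose arrays, and every exposed array was above every control by more than the spread within either group, a change of 1.56 (SE 0.12, adjusted p 9.28e-08). Atf4 rose by 0.78 (SE 0.16, adjusted p 0.00525, fitted on 5 control and 4 medium dose arrays) because the spot of medium dose replicate 3 was marked as an outlier, and a second detected Atf4 probe was not called. Nupr1 rose by 1.25 (SE 0.10, adjusted p 1.34e-07). Among the targets, Trib3, a pseudokinase that restrains the response, read 0.47, -0.15, 0.40, 0.60 and 0.21 on the control arrays and 2.98, 2.07, 2.26, 1.93 and 2.18 on the medium dose arrays, a change of 1.98 (SE 0.23, adjusted p 1.35e-05). Chac1, which breaks down glutathione, read 0.70, 0.14, 0.16, -0.36 and -0.46 on the control arrays and 1.76, 2.29, 2.15, 1.36 and 2.25 on the medium dose arrays. Its groups did not overlap, and the change was 1.93 (SE 0.18, adjusted p 1.57e-06). Asns, the asparagine synthetase, changed by 1.01 (SE 0.19, adjusted p 0.00173), Ppp1r15a, which ends the translation block, by 1.46 (SE 0.15, adjusted p 4.67e-06), and Sesn2, a sensor of leucine, by 1.13 (SE 0.16, adjusted p 0.000171). The cationic amino acid transporter Slc7a1 (0.94), the glycine transporter Slc6a9 (0.73, on 4 control and 5 medium dose arrays) and the alanine transaminase Gpt2 (0.81) were called as well. The serine synthesis genes Phgdh and Psat1 were not called.

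The C/EBP-ATF response element TGATGNAA, searched on both strands, was in the promoters of 4 of 11 called members with an entry in the table, of 2 of 14 members not called and of 4.51% of all genes. The 4 were Chac1, Asns, Nupr1 and Trib3, and the match in Trib3 lies 15 bases after the start. The 200 bases before the start are shown for the other 3, with the match in capitals as it reads on the strand of the gene, so that Chac1 and Nupr1 show the reverse complement. They are chr2:119351042-119351241 on the plus strand, chr6:7693210-7693409 on the minus strand and chr7:126625471-126625670 on the minus strand, and the matches begin 193, 23 and 110 bases before the start.
Chac1: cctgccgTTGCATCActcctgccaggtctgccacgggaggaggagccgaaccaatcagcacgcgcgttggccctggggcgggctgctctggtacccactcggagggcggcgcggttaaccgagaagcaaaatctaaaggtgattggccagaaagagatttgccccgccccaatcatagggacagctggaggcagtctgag
Asns: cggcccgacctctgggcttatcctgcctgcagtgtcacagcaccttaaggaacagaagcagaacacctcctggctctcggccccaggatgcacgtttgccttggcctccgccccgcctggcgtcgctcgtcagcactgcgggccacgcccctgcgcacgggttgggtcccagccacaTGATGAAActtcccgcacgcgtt
Nupr1: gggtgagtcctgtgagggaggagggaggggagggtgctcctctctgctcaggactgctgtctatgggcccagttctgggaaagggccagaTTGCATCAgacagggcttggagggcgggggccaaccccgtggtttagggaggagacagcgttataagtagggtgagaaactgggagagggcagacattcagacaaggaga

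Endoplasmic reticulum chaperones are induced by other arms of the same stress pathway. Of 23 detected genes 8 were called lower, 1 higher and 14 not, with a median change of -0.52. With 1 array left out 6 to 9 were called lower. Hsp90b1, the chaperone GRP94, read 0.44, 0.30, 0.54, 0.83 and 1.15 on the control arrays and -0.62, -0.34, -0.06, 0.37 and -0.03 on the medium dose arrays. The exposed array of slide 2 overlaps the controls as read, every exposed array was below the control of its own slide, and the change was -0.79 (SE 0.11, adjusted p 0.00016). Pdia6 changed by -0.90 (SE 0.11, adjusted p 3.33e-05), Dnajc3 by -0.85 (SE 0.11, adjusted p 4.39e-05) and Calr, calreticulin, by -1.05 (SE 0.25, adjusted p 0.0124), with control replicate 1 well below the other controls for Calr. Hspa5, the chaperone BiP, fell short of the fold threshold at -0.42 (SE 0.10, adjusted p 0.0147). Xbp1, the factor of that arm, changed by -0.52 (SE 0.14, adjusted p 0.0325) and was likewise under 1.5-fold. The increase was that of the sensor Atf6, 0.71 (SE 0.12, adjusted p 0.0011). Cytosolic heat shock proteins had 1 of 21 detected genes called, the small heat shock protein gene Hspb2 at -0.98 (SE 0.12, adjusted p 3.25e-05), and a median change of -0.01. After median centring 2 of the chaperones were called lower, with a median of -0.43, and 7 of the ATF4 list higher, with a median of 0.67, Atf4 and Asns not among them.

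Targets of p53 were called in both directions. Of 25 detected genes 6 were called higher and 2 lower, with a median change of 0.38. Gadd45a, a growth arrest and repair gene, read -2.51, -2.39, -2.17, -1.19 and -1.42 on the control arrays and -0.07, -1.11, -0.20, -0.06 and -0.34 on the medium dose arrays, with replicate 2 the lowest exposed array, and changed by 1.58 (SE 0.22, adjusted p 0.000101). The kinase gene Plk2 rose by 1.47 (SE 0.25, adjusted p 0.00154, fitted on 4 control and 4 medium dose arrays), and the cell death genes Bbc3 (0.82) and Pmaip1 (0.75, on 4 control and 5 medium dose arrays) were called higher. Sesn1 fell, at -1.02 (SE 0.09, adjusted p 3.33e-07), and so did the death receptor Fas, at -0.87 (SE 0.17, adjusted p 0.00251). The best known p53 targets Cdkn1a and Mdm2 were not called, and Trp53 itself changed by 0.49 (SE 0.28, adjusted p 0.457). After median centring 2 of these targets were called higher and 1 lower, Plk2, Bbc3 and Fas not among them.

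Genes for making ribosomes and charging tRNA had calls in 1 direction, and most members were not called. Of 55 detected ribosome biogenesis genes 23 were called higher and 0 lower, with a median change of 0.56 and 3 genes below 0. Proteins of the nucleolar guide RNA particles, grouped with other nucleolar proteins, had 11 of 18 members called, processing factors 10 of 29 and RNA polymerase I genes 2 of 8. Nop56, a core protein of the methylation guide particles, read 1.56, 1.02, 0.85, 0.91 and 0.73 on the control arrays and 2.44, 1.96, 2.06, 1.79 and 2.25 on the medium dose arrays, and changed by 1.09 (SE 0.16, adjusted p 0.000176). Wdr43, a processing factor, read 0.22, -0.07, -0.01, -0.22 and -0.03 on the control arrays and 0.99, 0.73, 1.07, 0.83 and 1.11 on the medium dose arrays. The groups were apart by more than their spread, a change of 0.97 (SE 0.11, adjusted p 9.64e-06). Nop58, the partner of Nop56, rose by 0.92 (SE 0.19, adjusted p 0.00379), with control replicate 5 far below the other controls. The nucleolar helicase Ddx21 (0.92), the ribosome assembly factor Rrs1 (0.79) and the polymerase I subunit Polr1b (0.83) were called too. Of 23 aminoacyl-tRNA synthetase genes 6 were called higher and 0 lower, with a median of 0.45, led by the threonine enzyme Tars, 0.83 (SE 0.10, adjusted p 1.36e-05), and followed by those for serine, Sars (0.81), and arginine, Rars (0.70). The counts depend on the processing, for a cause that was not tested: after median centring 5 ribosome biogenesis genes and 1 synthetase were called, with medians of 0.61 and 0.53, and Nop56, Wdr43, Nop58, Ddx21, Tars and Rars were not among them. The E-box CACGTG, which Myc proteins bind, was in the promoters of 5 of 22 called and 7 of 27 uncalled ribosome biogenesis genes and of 8.09% of all genes.

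**Figure D2:**
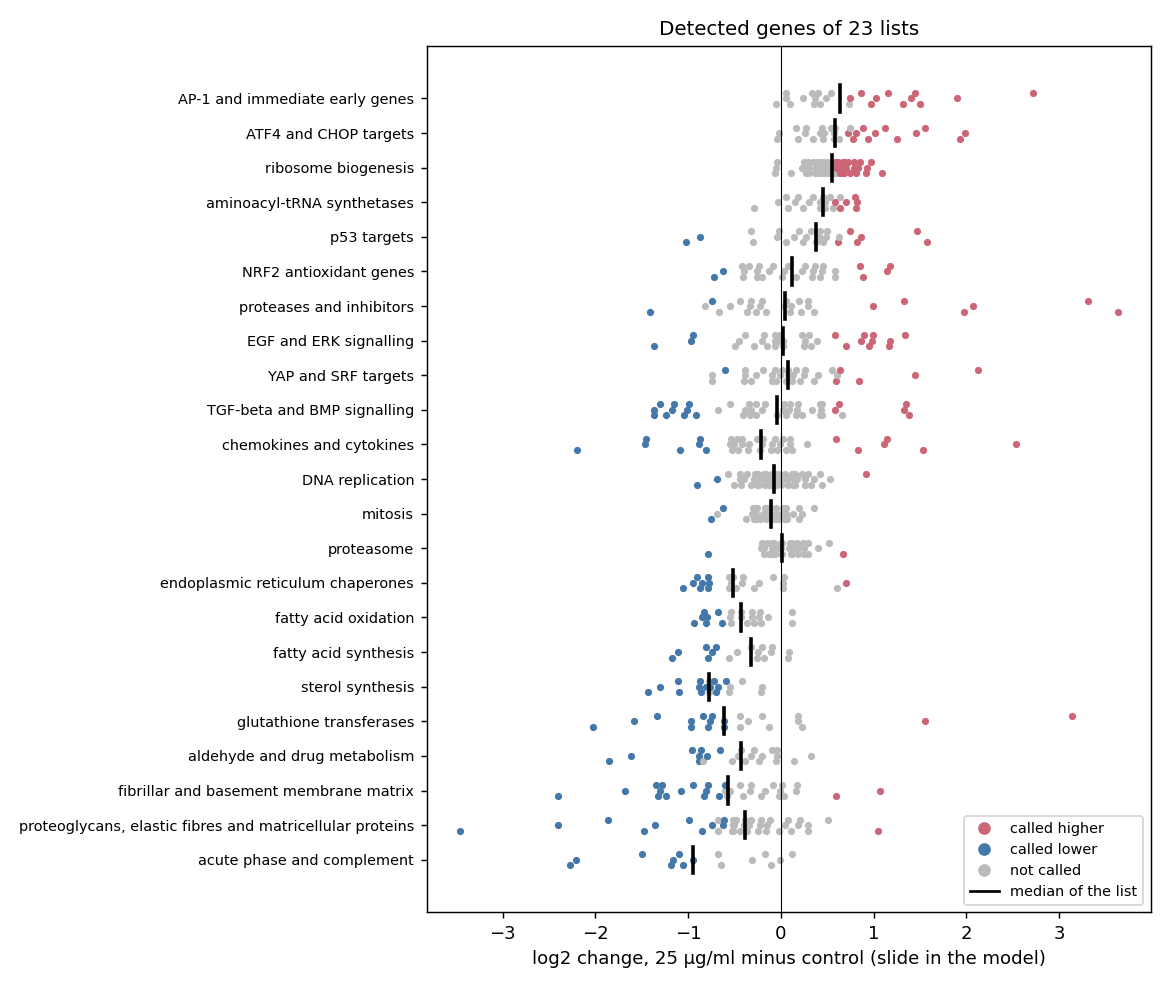
Log2 change at 25 µg/ml against control, with slide in the model, for each detected gene of 23 lists. Red and blue points were called higher and lower, grey points were not called, and black bars are list medians; the bars run from 0.64 (AP-1 and immediate early genes) to -0.95 (acute phase and complement).

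Genes of sterol synthesis were called in 1 direction. Of 20 genes, all detected, 13 were called lower and 0 higher, and all 20 changes were below 0, with a median of -0.77. The mevalonate arm, which builds the isoprene units, had 7 of 8 members called and the sterol arm, which closes and trims the rings, 6 of 12. Mvd, which makes the isoprene unit, read 1.08, 1.55, 1.58, 1.45 and 1.90 on the control arrays and -0.81, 0.57, -0.04, 0.55 and 0.12 on the medium dose arrays, with replicate 1 the lowest exposed array, and changed by -1.43 (SE 0.26, adjusted p 0.00127). Hmgcs1, an early synthase of the mevalonate arm, read 1.45, 1.67, 1.86, 1.99 and 2.01 on the control arrays and 0.77, 0.81, 0.94, 1.34 and 0.70 on the medium dose arrays. No exposed array reached the lowest control, and the change was -0.88 (SE 0.20, adjusted p 0.0119). Tm7sf2, a sterol reductase, changed by -1.30 (SE 0.11, adjusted p 7.11e-07, fitted on 5 control and 4 medium dose arrays) and Fdps, which joins the units to farnesyl, by -0.70 (SE 0.14, adjusted p 0.00253). Sqle, which oxidises squalene, was not called, at -0.78 (SE 0.30, adjusted p 0.167). Idi1 changed by -0.72 (SE 0.15, adjusted p 0.00558), a call that was lost without control replicate 1 (-0.57), and Dhcr7, Fdft1, Pmvk and Acat2 lost theirs in 5 to 8 of the 10 fits that leave out 1 array. After median centring 5 members were called, Mvd and Tm7sf2 among them and Hmgcs1, Fdps and Idi1 not, with a median of -0.68. Of 17 detected genes of sterol regulation and transport 1 was called, Insig1, a sensor that is itself a target of SREBP, at -0.88 (SE 0.16, adjusted p 0.0014). Srebf1 and Srebf2 changed by -0.12 (SE 0.13, adjusted p 0.777) and -0.18 (SE 0.20, adjusted p 0.787).

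The sterol response element TCACNCCAC, searched on both strands, was in the promoters of 1 of 10 called sterol synthesis genes with an entry in the table, of 0 of 5 not called and of 1.44% of all genes. The match in Hmgcs1, an established target of SREBP, begins 137 bases before the start, in capitals in the 200 bases before the start, chr13:119690151-119690350 on the plus strand.
Hmgcs1: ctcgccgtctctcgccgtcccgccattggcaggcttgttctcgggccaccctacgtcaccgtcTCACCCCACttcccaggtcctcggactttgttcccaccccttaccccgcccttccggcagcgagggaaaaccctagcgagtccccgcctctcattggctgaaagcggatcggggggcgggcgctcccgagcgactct

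Calls in fatty acid metabolism were lower in synthesis and in breakdown. Of 17 detected synthesis genes 6 were called lower and 0 higher, with a median change of -0.33. Acss2, which makes acetyl-CoA from acetate, read -0.93, -1.25, -1.26, -1.23 and -1.07 on the control arrays and -2.38, -2.34, -2.40, -1.87 and -2.29 on the medium dose arrays, and changed by -1.11 (SE 0.11, adjusted p 5.03e-06). The citrate lyase Acly (-0.78), the elongase Elovl6 (-0.74, on 4 control and 4 medium dose arrays) and the desaturase Scd1 (-0.70) were called, and Scd2 at -1.17 (SE 0.28, adjusted p 0.0154) lost its call without control replicate 3 or 5 or medium dose replicate 4 or 5 (-1.01 to -1.10). The fatty acid synthase gene Fasn was not called. Of 22 detected genes of fatty acid oxidation 7 were called lower and 0 higher, with a median of -0.43. Echs1, a hydratase of the spiral, read -0.32, -0.14, 0.19, 0.37 and 0.68 on the control arrays and -1.17, -0.96, -0.58, -0.67 and -0.51 on the medium dose arrays, all exposed arrays being lower, a change of -0.93 (SE 0.14, adjusted p 0.000258). Acadm, the medium-chain dehydrogenase, read -0.95, -0.83, -0.65, -0.71 and -0.58 on the control arrays and -1.85, -1.46, -1.48, -1.46 and -1.75 on the medium dose arrays, also without overlap, a change of -0.85 (SE 0.10, adjusted p 1.25e-05). Cpt1a, the gate for entry into mitochondria, changed by -0.83 (SE 0.11, adjusted p 8.68e-05). After median centring 2 of the synthesis genes and 4 of the oxidation genes were called lower, Acly, Elovl6 and Scd2 not among them. Of the tricarboxylic acid cycle Idh1 (-1.18, on 4 control and 5 medium dose arrays), Pcx (-1.07) and Mdh1 (-0.80), which are cytosolic or feed the cycle, were called lower among 24 genes, and of glycolysis Pdk1 (-0.89), Pfkm (-0.76) and Pfkfb4 (-0.68) among 23, the last with its call lost in 7 of the 10 fits that leave out 1 array. Mdh1, Pfkm and Pfkfb4 lost their calls after median centring.

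Glutathione transferases attach glutathione to electrophiles, a step of detoxification. Of 21 detected genes 11 were called lower, 2 higher and 8 not, with a median change of -0.61. With 1 array left out 8 to 11 were called lower, and Gstm1, Gstm3, Gstm4 and Gstz1 lost their calls in some of these fits. Gstt1, a theta class enzyme, read 0.22, -0.15, -0.15, 0.23 and 0.16 on the control arrays and -1.87, -1.95, -2.16, -2.04 and -1.80 on the medium dose arrays. The groups were tight and far apart, and the change was -2.03 (SE 0.11, adjusted p 1.18e-09). Mgst1, the microsomal enzyme, read -0.48, -0.31, 0.16, 0.34 and 0.24 on the control arrays and -1.67, -1.78, -1.39, -1.25 and -1.86 on the medium dose arrays, and changed by -1.58 (SE 0.12, adjusted p 7.58e-08). The alpha class genes Gsta3 (-1.33) and Gsta4 (-0.74), the mu class gene Gstm2 (-0.97) and Gstt3 (-0.77) were also called lower, while members of the mu class are alike in sequence and their probes may share signal. The exceptions were the omega class pair, which reduce rather than conjugate. Gsto2 read -1.22, -1.08, -1.45, -0.74 and -1.16 on the control arrays and 2.28, 1.29, 2.19, 2.20 and 2.06 on the medium dose arrays, replicate 2 being the lowest exposed array, a change of 3.13 (SE 0.23, adjusted p 7.06e-08). Gsto1 read 0.47, 0.61, 0.56, 0.18 and 0.50 on the control arrays and 2.00, 2.14, 1.95, 1.80 and 2.23 on the medium dose arrays, and its change was 1.56 (SE 0.12, adjusted p 9.28e-08). After median centring 5 transferases were called lower, Gsta4 and Gstt3 not among them, with a median of -0.53.

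Of 23 detected aldehyde dehydrogenases and other drug-metabolising enzymes 8 were called lower and 0 higher, with a median of -0.43. Aox1, the aldehyde oxidase, read 0.41, -0.35, 0.55, 0.14 and 0.74 on the control arrays and -1.51, -1.75, -1.26, -1.55 and -1.68 on the medium dose arrays, and changed by -1.85 (SE 0.20, adjusted p 5.46e-06). Aldh1a7 (-1.61), Aldh4a1 (-0.88), Aldh1a1 (-0.88), Aldh9a1 (-0.86) and Aldh2 (-0.80) followed, of which Aldh1a1 and Aldh1a7 are near relatives whose probes may share signal. The aryl hydrocarbon receptor Ahr changed by -1.35 (SE 0.20, adjusted p 0.000167) and its target Cyp1b1 by -1.38 (SE 0.27, adjusted p 0.00421, fitted on 4 control and 4 medium dose arrays), and the other 5 detected genes of that pathway were not called, nor were Ahr and Cyp1b1 after median centring (-1.28 and -1.33, adjusted p 0.059 and 0.0562). The NRF2 pathway had calls in both directions. Of 30 detected genes 4 were called higher and 2 lower, with a median of 0.12. The antioxidant response element core TGACNNNGC was searched on both strands of the RefSeq promoters. It was in 1 of 3 genes called higher, 11 of 21 not called and 14% of all genes. Sqstm1, the autophagy adaptor p62, read -0.57, -0.56, -0.17, -0.79 and 0.00 on the control arrays and 0.48, 1.32, 1.11, 0.68 and 0.17 on the medium dose arrays, a change of 1.17 (SE 0.20, adjusted p 0.00089). Txnrd1, which recycles thioredoxin, read 0.18, 0.66, 0.27, 0.29 and 0.14 on the control arrays and 1.33, 1.49, 0.97, 1.01 and 1.19 on the medium dose arrays, a change of 0.89 (SE 0.12, adjusted p 4.61e-05) with no overlap. Hmox1, the haem oxygenase, changed by 1.14 (SE 0.20, adjusted p 0.000987) by its brighter probe, and its other detected probe was not called. Slc7a11, the cystine importer that ATF4 also drives, changed by 0.85 (SE 0.15, adjusted p 0.00104). Osgin1 fell, at -0.72 (SE 0.14, adjusted p 0.0039), as did Slc48a1, at -0.62 (SE 0.12, adjusted p 0.00386), whose call was lost without medium dose replicate 3 (-0.56) or 4 (-0.53). Nqo1, Gclm and Gclc, common readouts of NRF2, were not called, and Nfe2l2, which encodes NRF2, changed by 0.58 (SE 0.18, adjusted p 0.0604). The metallothionein gene Mt1 fell by 1.39 on the log2 scale (SE 0.17, adjusted p 4.14e-05), and Mt2 changed by -1.0 (SE 0.25, adjusted p 0.017), a call lost without control replicate 1 (-0.84) or 3 (-0.95) or medium dose replicate 4 (-0.79). After median centring 4 of the aldehyde and drug enzymes were called lower, Aldh1a1 and Aldh2 not among them, and Mt1 and Mt2 lost their calls, as did Slc7a11, Osgin1 and Slc48a1 of the NRF2 genes.

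Genes of the extracellular matrix were called in both directions, most calls being lower and most genes not called. Of 32 detected fibrillar and basement membrane genes 14 were called lower and 2 higher, with a median of -0.57: 9 of 18 collagens were called lower and 0 higher, and of 14 laminin and nidogen genes 5 lower and 2 higher. Col1a1, a chain of type I collagen, read 2.11, 1.57, 1.69, 1.61 and 1.84 on the control arrays and 0.57, 0.54, 0.93, 0.65 and 0.75 on the medium dose arrays, and no exposed array reached a control. Its change was -1.08 (SE 0.16, adjusted p 0.000277), that of its partner chain Col1a2 -1.24 (SE 0.16, adjusted p 4.86e-05) and that of Col3a1 -1.34 (SE 0.15, adjusted p 1.08e-05). Lama1, a laminin chain, read 4.10, 2.39, 3.88, 4.03 and 2.05 on the control arrays and 1.16, 0.79, 1.36, 0.57 and 0.53 on the medium dose arrays, the controls being the more spread group, and changed by -2.41 (SE 0.27, adjusted p 1.05e-05). Among the exceptions was the laminin chain Lamb1 at 0.59 (SE 0.08, adjusted p 9.69e-05), under 1.5-fold in 5 of the fits that leave out 1 array. Of 40 proteoglycans, elastic fibre and matricellular genes 10 were called lower and 1 higher, with a median of -0.39. Mgp, which inhibits calcification, read 1.37, 1.55, 1.45, 1.33 and 1.07 on the control arrays and -2.03, -2.78, -1.16, -2.32 and -2.25 on the medium dose arrays, replicate 3 being the highest exposed array, a change of -3.46 (SE 0.42, adjusted p 2.72e-05), 11-fold. Decorin, Dcn, read 0.40, -0.55, -0.05, -0.73 and -0.16 on the control arrays and -1.57, -1.86, -1.85, -2.81 and -2.33 on the medium dose arrays, and changed by -1.86 (SE 0.34, adjusted p 0.00173). Other small leucine-rich proteoglycans called lower were Ogn (-1.48) and Fmod (-1.35), and the exception was osteopontin, Spp1, at 1.05 (SE 0.22, adjusted p 0.0055). Of 8 detected fibroblast markers 6 were called lower, with a median of -1.16 and a range of -1.86 to 0.40, but 4 of these are the collagens and decorin already counted in these lists. Of the markers outside the lists the receptors Pdgfra and Pdgfrb were called lower, and Thy1 and Vim were not called. Their part in the matrix result was not tested. After median centring 6 of the fibrillar and basement membrane genes were called lower and 0 higher, with a median of -0.49, and Col1a1, Col1a2 and, of the proteoglycans, Dcn and Ogn, and Spp1, lost their calls.

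Signalling by TGF-beta and BMP, growth factors that set matrix production, changed at several levels without a common direction. Of 43 detected genes 5 were called higher and 10 lower, with a median of -0.04. Counting any detected probe, 8 genes had a probe called higher and 10 a probe called lower. Among Smads and targets 5 genes had a probe called higher, against 2 by the brightest probe. Among the ligands Tgfb2 read 0.78, 0.41, 0.60, 0.73 and 0.73 on the control arrays and -0.44, -0.46, -0.73, -0.60 and -0.69 on the medium dose arrays, a change of -1.24 (SE 0.11, adjusted p 8.07e-07), and Tgfb3 changed by -0.99 (SE 0.09, adjusted p 9.32e-07), while Tgfb1 changed by -0.40 (SE 0.26, adjusted p 0.541) and was not called. Gdf15, a stress-induced ligand of the family, read -3.18, -2.63, -3.49, -2.83 and -2.22 on the control arrays and -1.37, -1.74, -1.65, -1.45 and -1.40 on the medium dose arrays. It rose by 1.35 (SE 0.15, adjusted p 1.3e-05). Among receptors the co-receptor Tgfbr3 was called, at -1.31 (SE 0.15, adjusted p 2.57e-05, fitted on 5 control and 4 medium dose arrays). Among antagonists Grem1, which binds BMP, rose by 1.38 (SE 0.20, adjusted p 0.000125), and the latent TGF-beta binding protein Ltbp2 changed by -1.05 (SE 0.11, adjusted p 5.91e-06). Among targets the 4 inhibitors of differentiation that follow BMP were all called lower, Id1 at -1.36 (SE 0.14, adjusted p 4.67e-06), Id2 at -1.36 (SE 0.19, adjusted p 8.68e-05), Id3 at -1.17 (SE 0.21, adjusted p 0.00179) and Id4 at -1.16 (SE 0.12, adjusted p 3.64e-06), the last well above background on 1 of 5 exposed arrays. The BMP-induced inhibitor Smad6 read 1.24, 1.17, 1.29, 1.76 and 1.34 on the control arrays and 0.35, -0.02, 0.28, 0.79 and 0.31 on the medium dose arrays, also lower on every exposed array, and the co-repressor Tgif1 rose by 1.33 (SE 0.13, adjusted p 1.31e-06). After median centring 3 genes were called higher and 9 lower, Tgfb3 not among them.

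The culture medium contains epidermal growth factor in every group, and the feedback genes of the ERK pathway below it were called higher. Of 14 detected feedback genes 8 were called higher and 0 lower, with a median of 0.65, whereas receptors had 2 of 10 called lower and ligands 2 higher and 1 lower of 9. Dusp6, a phosphatase that acts on ERK, read 0.21, 0.16, -0.70, -0.32 and -0.43 on the control arrays and 1.32, 0.70, 0.37, 0.67 and 0.61 on the medium dose arrays, and changed by 0.95 (SE 0.13, adjusted p 7.69e-05). Errfi1, which blocks the EGF receptor, changed by 1.34 (SE 0.17, adjusted p 2.87e-05), Dusp16 by 1.18 (SE 0.15, adjusted p 5.2e-05), Dusp1 by 1.0 (SE 0.18, adjusted p 0.00115) and Dusp4 by 0.98 (SE 0.14, adjusted p 0.000166). The ligands called higher were Ereg (1.16) and Hbegf (0.87, on 4 control and 3 medium dose arrays), and that called lower was Fgf1 (-0.94). Pdgfra, a receptor that is also a fibroblast marker, read -1.68, -1.67, -1.39, -1.49 and -1.31 on the control arrays and -3.00, -3.14, -2.59, -2.74 and -2.91 on the medium dose arrays, a change of -1.37 (SE 0.10, adjusted p 7.58e-08), and Pdgfrb changed by -0.97 (SE 0.17, adjusted p 0.000831). Egfr itself was not called. After median centring 4 genes of the whole list were called higher and 3 lower, against 10 and 3 with loess, and Dusp6, Dusp1, Ereg and Hbegf lost their calls.

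Of 12 detected YAP targets, genes that follow cell shape and tension, 4 were called higher and 0 lower, with a median of 0.45. Ccn2, connective tissue growth factor, read 1.34, 1.81, 2.08, 1.82 and 1.29 on the control arrays and 3.58, 3.38, 4.20, 4.08 and 3.73 on the medium dose arrays. It rose by 2.12 (SE 0.16, adjusted p 8.37e-08), 4.36-fold. Ankrd1 read -0.53, -0.05, -0.20, -0.12 and 0.10 on the control arrays and 0.90, 1.36, 1.21, 1.51 and 1.44 on the medium dose arrays, a change of 1.44 (SE 0.15, adjusted p 5.7e-06), and Lats2, a kinase that restrains YAP, rose by 0.84 (SE 0.10, adjusted p 5.74e-05, fitted on 4 control and 5 medium dose arrays). The 21 detected targets of SRF, which follow actin, had 1 called in each direction and a median of -0.07, and the smooth muscle genes Acta2, Tagln and Cnn1 were not called. Lats2 lost its call after median centring.

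Inflammatory genes were called in both directions. Of 38 detected chemokines, cytokines and their receptors 6 were called higher and 7 lower, with a median of -0.21, and 15 more, among them Il1a, Il1b, Cxcl1, Cxcl2 and Csf3, were not detected on 4 arrays of either group. Il33, an alarm cytokine kept in the nucleus, read 1.75, 0.68, 0.86, 0.53 and 0.05 on the control arrays and -0.86, -1.77, -0.96, -1.5 and -2.05 on the medium dose arrays, and changed by -2.20 (SE 0.31, adjusted p 0.00012). Il1rl1, which encodes its receptor ST2, read -4.01, -3.77, -4.17, -4.58 and -4.37 on the control arrays and -1.42, -1.73, -1.63, -1.66 and -1.75 on the medium dose arrays, so that ligand and receptor moved in opposite directions without overlap, the change of Il1rl1 being 2.54 (SE 0.22, adjusted p 4.53e-07). Of 3 detected Il1rl1 probes 2 were called higher and 1 was not called. Ccl5, a chemokine for T cells, rose by 1.53 (SE 0.16, adjusted p 4.81e-06), and the membrane-bound chemokine Cx3cl1 read -2.45, -2.10, -1.94, -2.31 and -2.36 on the control arrays and -3.91, -3.64, -3.33, -3.87 and -3.66 on the medium dose arrays, a change of -1.45 (SE 0.14, adjusted p 3.22e-06). Il18 (-1.09) and the receptor Lifr (-1.47, on 4 control and 5 medium dose arrays) were called lower, and Tslp (0.83), the TWEAK receptor Tnfrsf12a (1.14) and osteoprotegerin Tnfrsf11b (1.12) higher. The prostaglandin synthase Ptgs2 read 1.5, 1.12, 1.32, 0.87 and 0.72 on the control arrays and 2.47, 2.52, 2.78, 2.89 and 2.70 on the medium dose arrays, and rose by 1.57 (SE 0.19, adjusted p 2.02e-05). Of 17 detected NF-kappaB genes it was called higher with the inhibitor Tnfaip3 (0.94), the adhesion molecule Vcam1 was called lower at -0.62 (SE 0.13, adjusted p 0.00645), and the subunit Rela changed by 0.53 (SE 0.16, adjusted p 0.0681) and was not called. After median centring Tslp, Tnfaip3 and Vcam1 lost their calls, and that of Vcam1 was also lost without medium dose replicate 1. The other detected Vcam1 probe was not called.

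Complement and acute phase genes had the lowest median of the functional lists, -0.95, with 8 of 15 detected genes called lower and 0 higher. Cd55, which dissolves convertases on the cell surface, read 4.51, 3.01, 3.63, 3.53 and 2.83 on the control arrays and 2.06, 0.55, 1.51, 1.28 and 1.08 on the medium dose arrays, and changed by -2.21 (SE 0.26, adjusted p 1.53e-05). The central component C3 read 0.32, -0.20, 0.21, -0.29 and -0.03 on the control arrays and -0.75, -1.24, -0.88, -1.74 and -1.30 on the medium dose arrays, a change of -1.18 (SE 0.18, adjusted p 0.000224), and the first-component proteases C1s1 (-1.5, on 4 control and 5 medium dose arrays) and C1ra (-1.10) and the lipopolysaccharide binding protein Lbp (-1.16) were also called lower. Haptoglobin, Hp, changed by -0.95 (SE 0.24, adjusted p 0.0204), a call lost in 6 of the fits that leave out 1 array. The acute phase genes Saa1, Saa3 and Lcn2 were not called. After median centring 5 of the list were called, with a median of -0.88, and C3, C1ra, Hp and C4bp lost their calls. C4bp, a complement inhibitor outside the list, read 2.91, 1.77, 3.13, 2.01 and -0.01 on the control arrays and -0.01, -0.31, 0.20, -0.07 and -0.44 on the medium dose arrays. It changed by -2.09 (SE 0.30, adjusted p 0.000165), but control replicate 5 was as low as the exposed arrays before slide means were removed, and the spot was well above background on 2 of 5 medium dose arrays.

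Several lists held few calls. They had 0% to 7.41% of genes called in a direction, against 4.23% higher and 4.68% lower of all named detected genes. These small counts do not set the lists apart from all genes. Of 54 detected DNA replication genes 1 was called higher and 2 lower, with a median of -0.07, and of 39 mitosis genes 0 higher and 2 lower, with a median of -0.10, Nuf2 at -0.76 (SE 0.12, adjusted p 0.000416) being the larger. Of 37 proteasome genes 1 was called in each direction, Psmd8 at 0.68 (SE 0.12, adjusted p 0.00135) and Psme1 at -0.79 (SE 0.14, adjusted p 0.00109), and the median was 0.02. Of 38 lysosome genes 1 was called in each direction, the regulator Tfeb at -1.20 (SE 0.26, adjusted p 0.0091, fitted on 4 control and 4 medium dose arrays) and Ctsl at 0.65 (SE 0.16, adjusted p 0.0251, fitted on 4 control and 4 medium dose arrays), the latter lost without control replicate 2 or 5 or medium dose replicate 1 or 5 (0.56 to 0.61). Of 27 autophagy genes Sqstm1 and Atg14 (0.66) were called higher. None of 14 tubulin and microtubule genes and none of 10 reference genes was called, with medians of 0.10 and 0.03. Hprt changed by 0.13 (SE 0.16, adjusted p 0.818), Gapdh by -0.42 (SE 0.15, adjusted p 0.15) and Actb by -0.06 (SE 0.34, adjusted p 0.974), whose sign turned after median centring (0.08). A p above the threshold does not show that these genes kept their level. Among the called genes of these lists Nuf2, Psmd8, Ctsl and Atg14 lost their calls after median centring.

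Other genes with large changes belong to none of the lists. The proliferin genes Prl2c5 and Prl2c1, prolactin relatives first known from growing fibroblasts and placenta, are nearly alike, so that their probes may not tell them apart. Prl2c5 read -0.47, -0.27, -0.28, -0.75 and -0.87 on the control arrays and 2.52, 2.62, 2.90, 2.81 and 2.58 on the medium dose arrays, a change of 3.22 (SE 0.15, adjusted p 1.47e-10), and Prl2c1 changed by 3.00 (SE 0.13, adjusted p 5.6e-11). Both had every exposed array above every control. Car6, a secreted carbonic anhydrase, read -3.50, -2.49, -2.80, -2.06 and -2.18 on the control arrays and 1.47, -0.78, 0.25, -1.42 and -0.52 on the medium dose arrays, the widest spread among the largest increases, and changed by 2.40 (SE 0.46, adjusted p 0.00226), with 2 of 5 control spots well above background. Tcim rose by 2.08 (SE 0.19, adjusted p 8.46e-07). Among the decreases, Nkain4, which binds the sodium pump, read 2.33, 2.25, 2.23, 2.97 and 2.62 on the control arrays and 0.19, 0.64, -0.01, 0.41 and 0.62 on the medium dose arrays, and changed by -2.11 (SE 0.13, adjusted p 7.9e-09). Trf, transferrin, changed by -2.10 (SE 0.29, adjusted p 9.82e-05), Smtnl2, a smoothelin relative, by -2.01 (SE 0.15, adjusted p 9.41e-08) and Olfml3, a secreted olfactomedin protein, by -2.40 (SE 0.34, adjusted p 0.00013). Gas1, a growth arrest protein of the cell surface, changed by -2.25 (SE 0.23, adjusted p 4.23e-05, fitted on 3 control and 3 medium dose arrays) because the spots of replicates 3 and 4 were marked as outliers. A second detected Gas1 probe was not called.

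For some genes 1 group was not well above background on any array, and the size of the change is a bound. Angptl7, a secreted angiopoietin relative, read 0.29, 0.76, 0.17, -0.26 and -0.07 on the control arrays and -2.19, -1.98, -2.44, -2.16 and -2.22 on the medium dose arrays, and was at least 4.42-fold lower at the medium dose (adjusted p 9.25e-07). Serpind1, heparin cofactor, was at least 2.1-fold lower, Msmp at least 1.96-fold and Phyhip at least 1.81-fold. Sprr2h, a small proline-rich protein of the epithelial envelope, read -0.85, -0.29, -0.29, 0.01 and -0.08 on the control arrays and 2.29, 0.99, 1.82, 0.97 and 1.53 on the medium dose arrays, and was at least 3-fold higher (adjusted p 0.000209). Maats1 was at least 1.6-fold higher and a second Tcim probe at least 1.78-fold, whereas Try5, at least 1.69-fold higher, lost its call in 5 of the fits that leave out 1 array, and Maats1 and Try5 were not called after median centring.

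Each slide repeats the comparison with its own control, and none of the arrays is shared between slides. The 200 probes most raised on slide 1 had median changes of 1.02, 1.25 and 1.18 on slides 2, 3 and 4, with 97% to 100% above 0, against 49.5% to 52.3% of all detected probes. The 200 most lowered had medians of -1.22, -1.34 and -1.13, with 96.5% to 100% below 0. Changes within a slide correlated between slides at r = 0.362 to 0.721 over 26625 to 29568 probes, which is a description across probes of the same cells. Of 46 lists 33 had medians on 1 side of 0 on all 4 slides and 13 did not, glycolysis, proteases and inhibitors and TGF-beta and BMP signalling being among the 13. Sterol synthesis had medians of -0.76, -0.41, -0.86 and -0.71 on slides 1 to 4, complement and acute phase genes -0.87, -0.63, -0.81 and -1.12, ribosome biogenesis 0.47, 0.58, 0.59 and 0.60, and ATF4 and CHOP targets 0.76, 0.45, 0.64 and 0.43. All named detected genes had medians between -0.01 and 0.03. With slide 1 alone, 2 arrays against 2, 14 probes were called.

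**Figure D3:**
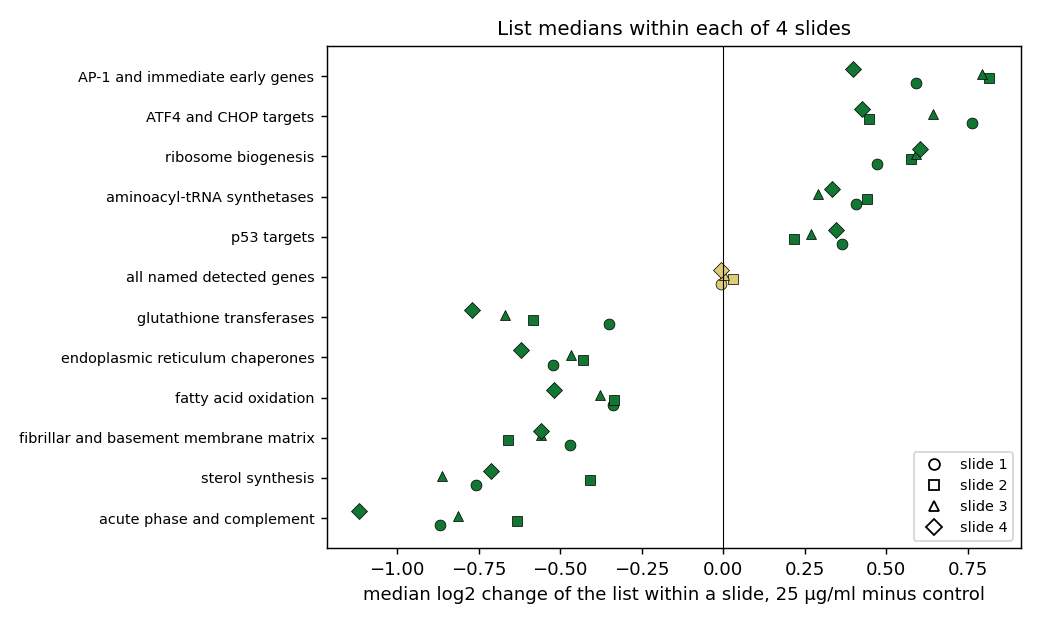
Median log2 change of 11 gene lists and of all named detected genes within each slide, medium dose minus control on the same slide. Symbols are slides 1 to 4, with slide 1 the mean of 2 array pairs; every list lies on the same side of 0 on all 4 slides, while all genes lie between -0.01 and 0.03.

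How large the response was on each array was measured as the slope of its changes on the mean change, over probes called without that array. The slopes of medium dose replicates 1 to 5 were 1.00, 0.74, 1.00, 0.89 and 0.93, so that replicate 2 responded least, on the same slide as replicate 1. The low dose arrays of the 4 slides with controls, replicates 1, 2, 3, 4 and 6, had slopes of 1.05, 0.65, 0.86, 0.77 and 0.64 over the 1686 called probes, and the same replicates of the high dose 1.10, 1.11, 1.29, 1.01 and 1.10. Low dose replicate 1 thus lay above every medium dose array, and medium dose replicate 2 within the range of the other low dose arrays. The probes were chosen on the medium dose, so the slopes are a description.

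**Figure D4:**
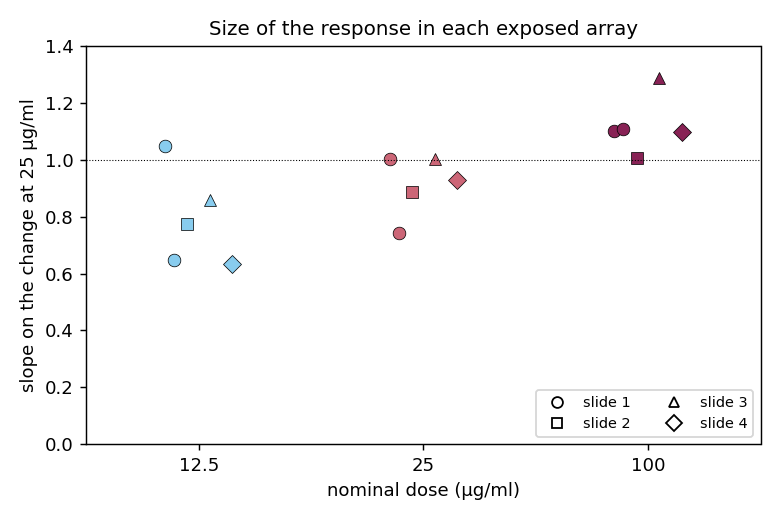
Slope of the change of each exposed array, against the controls of its slide, on the mean change at 25 µg/ml, by nominal dose in µg/ml (axis not to scale). Points are arrays and symbols slides, and the dotted line marks a slope of 1; the medium dose runs from 0.74 to 1.00, inside the range of the low dose (0.64 to 1.05), and the high dose from 1.01 to 1.29.

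The medium dose was also set directly against its neighbours. For the step from low to medium, limma called 0 of 31536 detected probes (0%): 2339 had an unadjusted p under 0.05, and no adjusted p was below 0.856. For the step from medium to high it called 0 of 32613 (0%): 1658 had an unadjusted p under 0.05, and no adjusted p was below 0.286. Against the value for 25 µg/ml on a straight line between low and high in log2 dose, 0 of 33382 were called (0%): 1608 had an unadjusted p under 0.05, and no adjusted p was below 0.985. The median standard error of a medium to low difference was 0.13. Mgp stood at 1.35, -0.94, -2.11 and -3.11 in control, low, medium and high dose, with differences of -1.08 (SE 0.42) from low to medium and -1.09 (SE 0.42) from medium to high. Ccn2 stood at 1.67, 3.25, 3.79 and 3.87, with differences of 0.63 (SE 0.16) and -0.02 (SE 0.16). Mmp13 stood at -0.07, 3.22, 3.56 and 3.51, with differences of 0.39 (SE 0.18) and -0.10 (SE 0.18). None of these steps passed the adjustment. The 4 named genes farthest from the line by unadjusted p were Olfr96 (medium minus line -0.32 (SE 0.07)), Igtp (-0.39 (SE 0.09)), Gpatch4 (0.38 (SE 0.09)) and Cep85 (-0.30 (SE 0.07)), all with an adjusted p of 0.985. Without low dose replicate 1, 2 probes were called for the step from low to medium.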

How the data were processed

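RNA of 22 FE1 samples was hybridised to 2-colour Agilent arrays, with the sample in Cy5, Universal Mouse Reference RNA in Cy3 and no dye swap. The authors deposited scanner intensity files (Feature Extraction 10.7.3.1, scanner G2505C, grid build mm9), whose spots carry Cy5 and Cy3 median intensity and a log10 ratio, and a table of processed log2 ratios. The deposited log10 and log2 ratios were used only as alternatives. Here the median intensities of 59305 spots per array, not background-subtracted, were normalised by loess (span 0.3), spots marked as outliers were set missing, and spots of a probe were combined by their median, giving 55681 probes. Of these 26413 were named through RefSeq transcript accessions. A probe was detected where its Cy5 signal exceeded the trimmed mean of 308 negative control spots by 3 trimmed SD (5% trimmed).

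All 22 arrays entered 1 limma model (R 4.3.3, limma 3.58.1) with group and slide as terms. Limma took the place of the MAANOVA model of the study. The Benjamini-Hochberg adjustment ran over 55681 probes. Scripts were tested on simulated data. Replicate numbers were checked for pairing. Every medium dose array deviated most like the control array of its number (r = 0.385 to 0.716). Outside slide 1, the arrays of a number were the only ones of these groups on their slide. A shared slide alone could favour that match, so the check cannot show there that the numbers pair the samples. On slide 1, which held replicates 1 and 2, each matched its own number best (r = 0.716 and 0.619). Slide is the term of the main model. In array data the number of arrays limits the precision. Where a gene had several detected probes, the brightest stood for it.

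The gene lists, markers and comparisons were chosen with earlier results of these data known. By rule the text names the 12 largest increases and 12 largest decreases without overlap, the 4 largest bounds in each direction, the extreme called genes of each list, 3 reference genes, the regulators that give lists their names and the 4 genes farthest from the dose line. Some genes that these rules name are not reported here. Further list members were picked as examples after their values were seen. Promoters came from RefSeq (GRCm38.p6), 1 or more windows for each of 27025 genes. Alternatives covered the normalization, background, source of the ratio, outlier marks, filters, slide term, replicate block, moderation and left-out slides and arrays. Probes have no coordinates here, because no annotation of the grid build was used.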

Additional observations from a re-analysis of the deposited data

Results flagged for a closer look

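Of 190 sets of 5 arrays, the values of a named gene or array measure in 1 group, 17 (8.95%) held 1 array far from the other 4 for the width of the set. In independent sets of normally distributed values chance gives about 1 in 20. The sets here share the same arrays, and many of the genes were chosen on their changes, so that rate is no yardstick for them. Control replicate 5 was the distant array 4 times: for Adamts9 at 1.10 (others 2.19 to 2.55), Cdt1 at -1.43 (-0.19 to 0.20), Nfe2l2 at -1.68 (-0.70 to -0.33) and Hsf1 at -0.72 (0.12 to 0.46), all as log2 ratios to the reference. Control replicate 1 stood apart for Insig1 at 1.49 (0.80 to 0.95), Calr at -0.24 (0.45 to 0.69) and Umps at 1.92 (0.94 to 1.19). Control replicate 4 stood apart for Prl2c1 at -0.63 (-0.28 to -0.24) and Zeb2 at -0.97 (-0.58 to -0.52).

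Among the medium dose arrays, replicate 2 was the distant array for Gsto2 at 1.29 (others 2.06 to 2.28) and Gadd45a at -1.11 (-0.34 to -0.06), in each case the one nearest to the controls. Replicate 4 was distant for Msmp at 0.44 (-0.05 to 0.08), Pdk1 at -2.42 (-3.21 to -3.07) and Mt1 at -2.04 (-1.43 to -1.26), and replicate 1 for Errfi1 at -1.28 (-1.86 to -1.74). The signal level required for detection was highest on replicate 4 of both groups, which share slide 2: 119.1 for the control (others 74.9 to 86.4) and 104.1 for the medium dose (77 to 80), in scanner units. No explanation for these values was tested.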

How the results depend on the processing

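The count of 1686 probes called at the medium dose became 638 after centring each array on its median in place of loess, 2972 with no fold threshold, 449 with a 2-fold threshold, 1120 with no slide term and 14 with slide 1 alone. For genes of the lists the count of 281 became 127 after median centring, 108 with the 2-fold threshold and 7 with slide 1 alone. Other settings kept these counts within 1.5 times. Leaving out 1 array at a time gave 1352 to 2044 probes and 241 to 287 list genes. The replicate block in place of slide gave 1913 calls, 1682 of them shared with the slide model. Between the medium and the low dose 0 calls became 2 without slide 1, 2 without low dose replicate 1 and 2 without both medium dose replicate 2 and low dose replicate 1, the last chosen after seeing the data, and leaving out 1 array gave 0 to 2. The other dose comparisons stayed at 0.

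Of 100 named values, median centring took 31 below the threshold, leaving out the slide term 18, leaving out slide 1 17 and slide 1 alone 80. The uncalled genes Actb, Hsf1 and Srebf1 changed sign. Actb (-0.06) became 0.078 after median centring and 0.092 without slide 1, and ran from -0.222 to 0.122 with 1 array left out. Hsf1 became -0.048 by the scanner's log ratio, -0.265 by the processed table, -0.245 without slide 4, -0.363 with slide 1 alone, -0.002 without both arrays named above and ran from -0.245 to 0.146 with 1 array left out. Srebf1 became 0.044 without slide 1. The cause was not tested. No scaling moved the median of all named genes by more than 0.031.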

Other observations

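Vessel and axon guidance factors were called in both directions. Of 38 detected genes 3 were called higher (7.89%) and 8 lower (21.1%), against 4.23% and 4.68% of all named detected genes, with a median change of -0.11. With 1 array left out 1 to 3 were called higher and 5 to 8 lower, and after median centring 1 and 3. Edn1, the vasoconstrictor endothelin, read 1.32, 1.54, 1.76, 1.72 and 1.40 on the control arrays and 2.45, 2.56, 2.68, 3.14 and 2.93 on the medium dose arrays, with no overlap, and changed by 1.20 (SE 0.11, adjusted p 7.86e-07). The lymphatic growth factor Vegfd changed by -1.14 (SE 0.15, adjusted p 5.74e-05), and the guidance ligands Sema3f (-0.76), Sema3c (-0.80) and Slit3 (-0.99) were called lower, Sema3f and Sema3c not after median centring. Among 30 detected genes of Wnt, Notch and Hedgehog signalling 5 were called lower (16.7%) and 0 higher, led by the Wnt receptors Fzd1, -1.32 (SE 0.14, adjusted p 5.38e-06), and Fzd4, -1.19 (SE 0.20, adjusted p 0.00069). With 1 array left out 2 to 5 of them were called lower, and after median centring 2. Gli1 and Notch3 were among those whose calls were lost in some of the fits that leave out 1 array. Of 12 detected integrins 2 were called lower (16.7%) and 0 higher, the collagen receptor subunits Itga11, -1.74 (SE 0.17, adjusted p 1.38e-06), and Itga1, -1.18 (SE 0.15, adjusted p 5.38e-05).

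Of 24 detected nuclear receptors and C/EBP factors 1 was called higher (4.17%) and 5 lower (20.8%), against 4.23% and 4.68% of all named detected genes. Cebpa rose by 0.77 (SE 0.13, adjusted p 0.000661) while its relative Cebpd changed by -1.15 (SE 0.13, adjusted p 1.09e-05), and the oestrogen receptor Esr1 (-0.73) and thyroid hormone receptors Thra (-0.68) and Thrb (-0.81, on 4 control and 4 medium dose arrays) were called lower. Of 15 detected circadian clock genes 2 were called higher (13.3%) and 1 lower (6.67%). They were Nfil3, a repressor, at 1.54 (SE 0.23, adjusted p 0.000179), Arntl, the clock activator BMAL1, at 0.74 (SE 0.16, adjusted p 0.0074), and the output factor Dbp at -1.09 (SE 0.19, adjusted p 0.00104, fitted on 4 control and 5 medium dose arrays). After median centring Cebpa, Cebpd, Thra, Arntl and Dbp lost their calls. Of 27 detected interferon and antigen presentation genes 2 were called higher (7.41%) and 4 lower (14.8%), against 4.23% and 4.68% of all named detected genes. After median centring 1 was called in each direction, and with 1 array left out 1 to 3 were called higher and 3 to 4 lower. Ifit1, an interferon-induced gene, read -2.73, -2.15, -2.97, -2.23 and -1.62 on the control arrays and -0.76, -1.04, -0.71, -0.06 and -0.60 on the medium dose arrays. It changed by 1.70 (SE 0.18, adjusted p 4.76e-06). Its control level is imprecise, since it was detected on 3 of 5 control arrays and well above background on 1 of 5. Tapbp, which loads antigen peptides, changed by -1.14 (SE 0.18, adjusted p 0.000566). Alveolar markers went no common way. Of 3 detected type 1 cell markers Hopx changed by -1.59 (SE 0.16, adjusted p 3.08e-06), Pdpn by 0.48 (adjusted p 0.0953) and Aqp5 by -0.09 (adjusted p 0.856). Of 4 detected type 2 cell markers Lamp3 changed by 0.75 (SE 0.18, adjusted p 0.0131), a call lost without control replicate 3 (0.68, adjusted p 0.0608) and after median centring, Abca3 by -0.37 (adjusted p 0.528) and the surfactant genes Sftpc by 0.75 (adjusted p 0.0914) and Sftpd by -0.01 (adjusted p 0.991).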
